A study of Mus musculus with 860 samples.

Results

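Semaphorins, Slits and netrins are guidance cues, and plexins, Robo proteins, neogenin, Dcc and the Unc5 proteins are the receptors that read them. The genes described here were taken by name: every protein-coding mouse gene called Sema3 to Sema7 with a letter, Plxna, Plxnb, Plxnc or Plxnd with a number, Slit1 to Slit3, Robo1 to Robo4, Unc5a to Unc5d, Ntn1, Ntn3, Ntn4, Dcc or Neo1. The rule found 45 genes in the annotation, of which 44 stood in the count table of 46078 genes and 1, Ntn3, is not analysed here. The 44 comprised 20 semaphorins, 9 plexins, 3 Slits, 4 Robos, 2 netrins and 6 netrin receptors.

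Single cells were index sorted from the aorta-gonad-mesonephros region (AGM) of Gfi1:tomato mouse embryos (strain label CD1/Gf1+), in which a red fluorescent protein reports the transcription factor GFI1. GFI1+ hemogenic endothelium (HE, CD31+cKIT-GFI1+) was set against GFI1+ intra-aortic hematopoietic cluster cells (IAHC, CD31+cKIT+GFI1+), these against GFI1- IAHC (CD31+cKIT+GFI1-), and E11.5, the later embryonic day, against E10.5. No embryo was treated, and all carried the reporter. Cells came from pools of AGMs and the labels name no animal, so each group counts as 1 sample and no test between groups was made. The study kept 775 of 860 cells and divided them into 11 Louvain clusters, of which it designated cluster 4 (76 cells) HSC-primed HE and cluster 2 the hematopoietic stem cell (HSC) cluster.

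Guidance cues were first described in the nervous system, where a growing axon turns toward or away from them. Semaphorins bind plexins, and the secreted class 3 members do so mostly through the co-receptors neuropilin 1 and neuropilin 2. Plexins then act on small GTPases and so change the actin skeleton and integrin adhesion. Slits bind Robo receptors, and netrins bind Dcc, neogenin and the Unc5 family. Endothelial cells use the same systems in vessel sprouting and barrier function, chiefly through Plxnd1, Robo4 and Unc5b, and blood cells use class 4 semaphorins in immune signaling.

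Each library held 1 cell. Kept libraries held 134284 to 2296823 counts, with a median of 727732, and all 6 endothelial markers examined had counts in every sorted group (summed 2371 to 7619 CPM, counts per 1000000 counts). Levels below are CPM of the counts summed over the cells of a group within a batch named in the labels (GL53, GL58, GL69 or GL78). A log2 ratio was taken within each batch with 1 CPM added to both sides and averaged over batches, with the SD over batches where there was more than 1. A gene was measured in a comparison at 10 CPM or more in either group, and was called higher or lower when its ratio reached 2-fold one way in each of the batches compared. Counting intervals (95%, exact Poisson for CPM and Clopper-Pearson for shares of cells) cover counting error only. In summed counts, fewer cells with a transcript and fewer transcripts per cell cannot be told apart, so shares of cells with a read were also taken with every cell thinned to 100000 counts.

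The promoters of 3 genes described below are shown first, picked with their values known. Sema3g (ENSMUSG00000021904, chr14:31217860-31230352, plus strand) and Unc5b (ENSMUSG00000020099, chr10:60762593-60831581, minus strand) were high in cluster 4. Sema6d (ENSMUSG00000027200, chr2:124089969-124667770, plus strand) was near absent from cluster 2. Each line gives the 250 bases before a start site of the gene in RefSeq (build GRCm38.p6), 5′ to 3′ on the strand of the gene, with matches to 4 motifs in capitals. The windows are chr14:31217623-31217872, chr10:60831582-60831831 and chr2:124089719-124089968.
Sema3g: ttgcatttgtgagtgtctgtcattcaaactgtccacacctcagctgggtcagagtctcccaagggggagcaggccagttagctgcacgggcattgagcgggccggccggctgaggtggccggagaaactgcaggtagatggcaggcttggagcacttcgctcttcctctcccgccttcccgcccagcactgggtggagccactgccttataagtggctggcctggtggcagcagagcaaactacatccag
Unc5b: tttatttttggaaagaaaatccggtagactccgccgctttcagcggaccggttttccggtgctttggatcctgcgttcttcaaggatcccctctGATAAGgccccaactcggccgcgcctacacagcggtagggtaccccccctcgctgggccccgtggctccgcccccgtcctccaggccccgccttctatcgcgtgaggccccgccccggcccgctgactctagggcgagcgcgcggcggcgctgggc
Sema6d: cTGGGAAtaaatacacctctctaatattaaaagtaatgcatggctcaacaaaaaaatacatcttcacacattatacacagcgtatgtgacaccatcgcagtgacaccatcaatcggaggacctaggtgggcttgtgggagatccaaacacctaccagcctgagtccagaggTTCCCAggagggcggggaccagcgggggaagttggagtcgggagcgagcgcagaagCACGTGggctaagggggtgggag
The motifs were searched on both strands. TGGGAA (the core bound by RBPJ, the DNA-binding factor of Notch) was in 21.6% of 32851 promoters of this length, the E-box CACGTG in 6.02%, the SOX core AACAAT in 9.42% and the GATA core GATAAG in 6.55%. The Sema6d window held TGGGAA at its far end and, on the other strand as TTCCCA, 79 bases before the start, with CACGTG 23 bases before the start. The Unc5b window held GATAAG in its far portion, and the Sema3g window held none of the 4 letter strings. Among 48 promoters read for 35 of the genes, 7 held TGGGAA, 3 CACGTG, 2 AACAAT and 1 GATAAG. None of these matches overlapped another within the 3 windows shown, and a match is a description of letters only.

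A few receptors made up most of the signal. Per kilobase of exon over all kept cells, Plxnd1, the plexin of vascular endothelium, led with 77.2 CPM per kb, ahead of the endothelial receptor Robo4 with 51.4 and the netrin receptor Unc5b with 14.2. The transmembrane semaphorins Sema6a and Sema6d followed with 9.97 and 9.79 CPM per kb, then the broadly used plexin Plxnb2 with 9.14 and neogenin, Neo1, with 3.40. Of the 44 genes, 32 reached 10 CPM in at least 1 sorted group and batch. These were 5 of 7 class 3 semaphorins, 4 of 6 of class 4, 5 of 7 of classes 5 to 7, 8 of 9 plexins, 2 of 3 Slits, all 4 Robos, 1 of 2 netrins and 3 of 6 netrin receptors. The remaining 12 (Sema3b, Sema3e, Sema4a, Sema4f, Sema6c, Sema7a, Plxnb3, Slit1, Ntn4, Dcc, Unc5a and Unc5d) stayed below it, with Unc5a the highest at 6.94 CPM. Sema3e, the secreted ligand that binds Plxnd1 directly, reached at most 1.60 CPM.

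GFI1+ HE held more of these transcripts than GFI1+ IAHC at both stages. Summed over all 44 genes, E11.5 HE had 2136, 1786 and 2166 CPM in GL53, GL58 and GL78, against 1465.04, 1322 and 1575 CPM in E11.5 GFI1+ IAHC, and E10.5 HE had 1445 CPM, against 854 CPM in E10.5 GFI1+ IAHC, in GL78. At E11.5, 20 genes were measured in the 3 batches that held both populations. Sema3g and Plxna2 were higher in HE and Plxnc1 was lower, with 0.917% of the 9923 genes measured higher and 0.917% lower under the same rule. The median log2 ratio was 0.51 over the 20 genes and -0.08 over all measured genes. At E10.5, where only GL78 held both, 8 of 20 genes were higher in HE and 0 lower, beside 5.47% and 1.99% of 9577 measured genes. The median log2 ratio there was 0.71, against -0.02 over all measured genes. Cluster 4 took 24.4% of the HE cells, against 0.833% of the GFI1+ IAHC cells, at E11.5, and 24.8% of the HE cells, against 1.72% of the GFI1+ IAHC cells, at E10.5. The summed arterial markers moved the same way, at 1182 to 2209 CPM in HE, against 359.2 to 431.3 CPM in GFI1+ IAHC, at E11.5, and at 745 to 1744 CPM in HE, against 289.4 to 463.8 CPM in GFI1+ IAHC, at E10.5. Cluster 9, led by megakaryocyte markers, gave 10.1% of the E10.5 HE cells and no E10.5 GFI1+ IAHC cell. Without clusters 6 to 10, 7 of the 8 genes were still called higher in HE at E10.5, and the call of Plxna4 was lost. The parts of cluster 4, of the arterial markers and of cluster 9 alone in these ratios were not tested.

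Among the secreted class 3 semaphorins, Sema3g, a ligand that mouse arterial endothelium makes, marked the HE side. It stood at 31.04, 12.3 and 30.02 CPM in E11.5 GFI1+ HE of GL53, GL58 and GL78, against 1.85, 1.86 and 0.405 CPM in E11.5 GFI1+ IAHC. The log2 ratio was 3.39 ± 1.13 (SD, 3 batches). The groups did not overlap, but the share of all genes without overlap was not counted, so this has no background beside it. In GL58, 1 cell gave 61.5% of the HE reads. At E10.5 the values were 18.9 CPM (17.9 to 19.8) in HE, against 3.98 CPM (3.53 to 4.46) in GFI1+ IAHC of GL78, a log2 ratio of 1.996. Sema3f, which signals through neuropilin 2, was not called between the populations at E11.5 (0.55 ± 1.43), with 25.6, 12.3 and 6.23 CPM in HE and 6.13, 7.06 and 13.03 CPM in IAHC, which overlap.

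Of the membrane-bound semaphorins of classes 4 to 7, only Sema5b was called between HE and IAHC, at E10.5. Sema6d, a ligand of plexin A1 in mouse heart and bone, stood at 171.8, 86.7 and 120 CPM in E11.5 GFI1+ HE, against 107.1, 131.8 and 105.3 CPM in E11.5 GFI1+ IAHC (0.09 ± 0.64). Sema6a, which binds plexins A2 and A4, stood at 110, 73.6 and 89.6 CPM in E11.5 GFI1+ HE, against 113.8, 97.1 and 126.9 CPM in E11.5 GFI1+ IAHC (-0.31 ± 0.24). Both genes were expressed on either side at overlapping levels and neither was called. At E10.5 Sema6d had 87.7 CPM in GFI1+ HE and 53.5 CPM in GFI1+ IAHC (0.70), and Sema6a 52.6 CPM in GFI1+ HE and 41.1 CPM in GFI1+ IAHC (0.35), again below 2-fold. Sema5b, a transmembrane semaphorin with thrombospondin repeats, was higher in HE of that stage at 10.3 CPM (9.61 to 11.1), against 0.79 CPM (0.60 to 1.02) in IAHC (2.66). It had reads in 9 of 91 HE cells and 2 of 87 IAHC cells, and without the highest cell of each group it fell under the 10 CPM minimum. Sema4d, also called CD100, a class 4 semaphorin of lymphocytes, had 13.7, 8.28 and 13.1 CPM in E11.5 GFI1+ HE, against 32.1, 14.6 and 16.8 CPM in E11.5 GFI1+ IAHC (-0.75 ± 0.42), and was not called.

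Of the plexins, Plxnd1 (ENSMUSG00000030123, chr6:115954811-115995005, minus strand) was the most abundant in every sorted group and differed little. It had 737, 758 and 867 CPM in E11.5 GFI1+ HE, against 561, 508 and 656 CPM in E11.5 GFI1+ IAHC (0.46 ± 0.10), and 535 CPM in E10.5 GFI1+ HE, against 376.9 CPM in E10.5 GFI1+ IAHC (0.50). The HE values were all above the IAHC values of their batch, but none reached 2-fold. Plxna2, a receptor for class 6 and, with neuropilin 1, class 3 semaphorins, was higher in E11.5 GFI1+ HE at 101.9, 51.02 and 59.1 CPM, against 28.5, 23.05 and 23.1 CPM in E11.5 GFI1+ IAHC (1.41 ± 0.35). Without the highest cell of each group this ratio was 1.05 and without clusters 6 to 10 it was 1.26, and it was then no longer 2-fold in every batch. At E10.5 Plxna2 had 41.2 CPM (39.7 to 42.6) in GFI1+ HE and 14.3 CPM (13.5 to 15.2) in GFI1+ IAHC (1.46). Plxnb2, a receptor of class 4 semaphorins, was called at E10.5 with 82.01 CPM in HE and 29.7 CPM in IAHC (1.44), while at E11.5 it had 71.5, 43.3 and 80.6 CPM in HE and 55.3, 37.7 and 72.8 CPM in IAHC (0.23 ± 0.12). Plxna4, a partner of neuropilin 1 in the response to Sema3a, had 13.8 CPM in E10.5 HE and 5.38 CPM in E10.5 IAHC (1.22, and 0.82 without clusters 6 to 10). Plxnc1, the receptor of Sema7a, was the reverse case at E11.5 with 9.48, 2.13 and 4.01 CPM in GFI1+ HE, against 23.4, 16.96 and 16.6 CPM in GFI1+ IAHC (-1.85 ± 0.65), though at E10.5 it had 17.1 CPM in HE and 10.1 CPM in IAHC (0.71, not called). These ratios at the 2 stages were not tested against each other.

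Robo4 (ENSMUSG00000032125, chr9:37401897-37415115, plus strand), an endothelial receptor of vessel stability, was expressed on both sides of the HE to IAHC comparison. It had 469, 386 and 485 CPM in E11.5 GFI1+ HE, against 286.1, 280 and 309.4 CPM in E11.5 GFI1+ IAHC (0.61 ± 0.13), and 176.8 CPM in E10.5 GFI1+ HE, against 110 CPM in E10.5 GFI1+ IAHC (0.68). HE was higher in all 4 batch values, each by less than 2-fold. The secreted ligand Slit3 was higher in E10.5 HE at 13.9 CPM (13.1 to 14.7), against 5.36 CPM (4.84 to 5.91) in E10.5 IAHC (1.23), and fell below the minimum level when the highest cell of each group was left out. Slit2, its relative, had 37.9 CPM in E10.5 HE and 31.6 CPM in E10.5 IAHC (0.25). At E11.5 both Slits varied between batches more than between populations (Slit2 0.03 ± 2.28, Slit3 -0.73 ± 1.75).

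The netrin receptors Unc5b and Neo1 were higher in HE than in IAHC at E10.5, whereas the ligands were near absent. Unc5b, a netrin receptor of arteries and sprouting tip cells in mice, had 132.3, 167.1 and 145.1 CPM in E11.5 GFI1+ HE, against 46.8, 57.3 and 75.9 CPM in E11.5 GFI1+ IAHC (1.31 ± 0.33). HE lay above IAHC in each batch but in GL78 by slightly less than 2-fold, so the gene was not called. Without clusters 6 to 10 the ratio was 1.99 and the call was made. At E10.5 it was called with 147.1 CPM (144.5 to 149.9) in HE, against 32.4 CPM (31.1 to 33.7) in IAHC of GL78 (2.15), and IAHC of GL69, which had no HE beside it, had 16.6 CPM. Neo1, a receptor for netrins and repulsive guidance molecules, had 41.7 CPM in E10.5 HE and 15.6 CPM in E10.5 IAHC (1.37), but was not called at E11.5 (0.60 ± 0.80). Ntn1, the classical netrin ligand, reached 10.4 CPM at most and Ntn4 3.34 CPM.

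**Figure D1:**
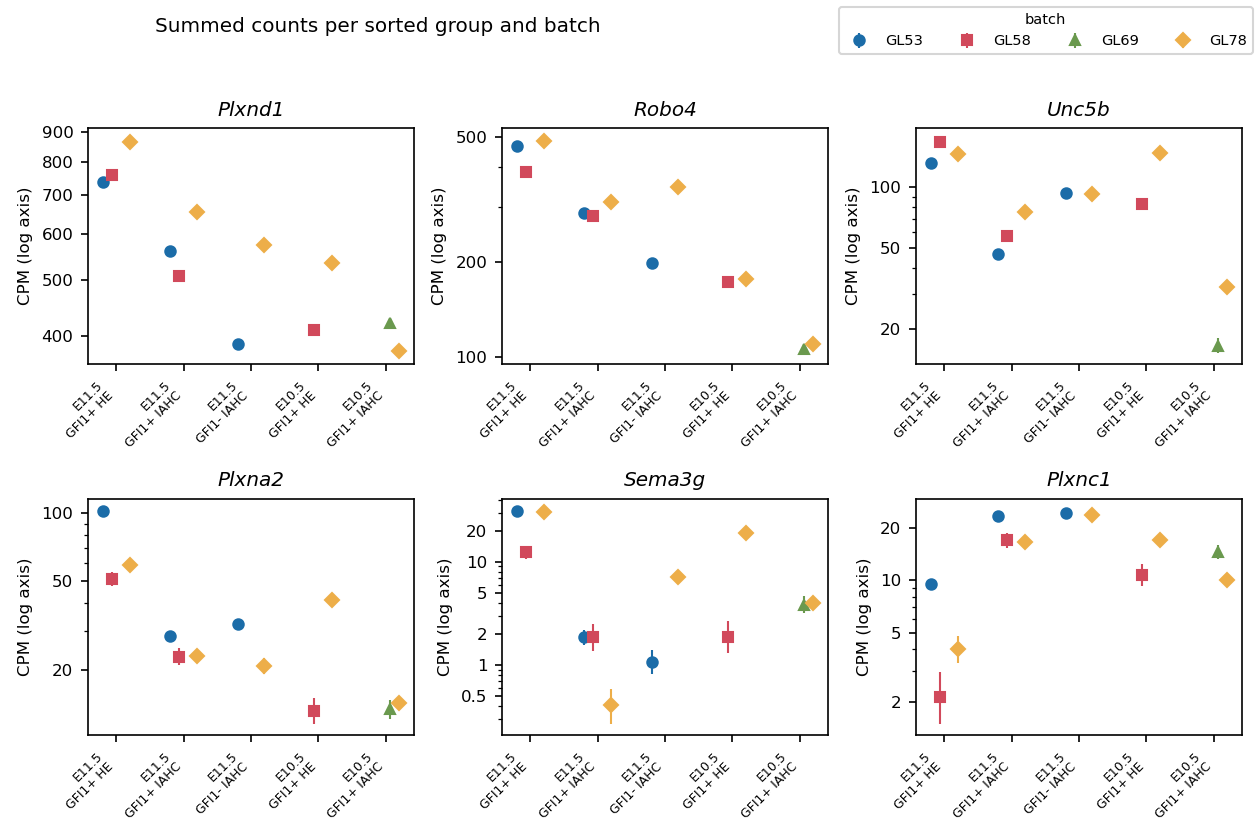
Levels of 6 genes in summed CPM (log axis), from left to right for HE, GFI1+ IAHC and GFI1- IAHC of E11.5 and for HE and GFI1+ IAHC of E10.5. Each point is 1 batch and bars are exact Poisson 95% intervals, so the spread of points shows the batches: Sema3g lies at 12.3 to 31.04 in E11.5 HE, above the 0.405 to 1.86 of E11.5 GFI1+ IAHC, whereas Plxnd1 stays between 376.9 and 867 in the batches compared.

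The endothelial receptors Robo4 and Plxnd1 were more abundant at E11.5 than at E10.5 in both populations. No sorted plate held cells of both stages, so stage and plate cannot be told apart. The summed endothelial markers moved the same way, at 5587 to 7619 CPM in E11.5 HE, against 3537 to 3767 CPM in E10.5 HE, and at 4028 to 5182 CPM in E11.5 GFI1+ IAHC, against 2371 to 2989 CPM in E10.5 GFI1+ IAHC. Erythroid markers summed to 1.47 to 2.13 CPM in E11.5 HE, against 250.2 to 314.3 CPM in E10.5 HE, and cluster 9 gave 0.581% of the E11.5 HE cells, against 10.1% of the E10.5 HE cells. Cluster 2 gave 16.25% of the E11.5 GFI1+ IAHC cells, against 36.2% of the E10.5 GFI1+ IAHC cells. The part of each of these differences alone in the ratios was not tested. In GFI1+ HE, 18 genes were measured, with 1 higher at E11.5 and 1 lower, beside 2.48% and 1.99% of 9808 measured genes, and a median log2 ratio of 0.40, against -0.01 over all. Robo4 was the gene called higher, at 386 and 485 CPM in E11.5 HE of GL58 and GL78, against 172.7 and 176.8 CPM in E10.5 HE (1.30 ± 0.21). Without clusters 6 to 10 its ratio was 1.09 and it missed 2-fold in 1 batch. Plxnd1 lay below the 2-fold line at 758 and 867 CPM in E11.5 HE, against 408 and 535 CPM in E10.5 HE (0.79 ± 0.14). Unc5b did not hold a direction, at 167.1 and 145.1 CPM in E11.5 HE, against 82.8 and 147.1 CPM in E10.5 HE (0.49 ± 0.72), and 65.9% of its E10.5 reads in GL58 came from 1 cell. Plxnc1 was the gene called lower, at 2.13 and 4.01 CPM in E11.5 HE, against 10.7 and 17.1 CPM in E10.5 HE (-1.88 ± 0.04). The other members at 50 CPM or more were not called. Sema6a had 73.6 and 89.6 CPM in E11.5 HE, against 52.8 and 52.6 CPM in E10.5 HE (0.62 ± 0.20). Sema6d had 86.7 and 120 CPM in E11.5 HE, against 76.99 and 87.7 CPM in E10.5 HE (0.31 ± 0.19), Plxnb2 43.3 and 80.6 CPM in E11.5 HE, against 41.3 and 82.01 CPM in E10.5 HE (0.02 ± 0.07), and Plxna2 51.02 and 59.1 CPM in E11.5 HE, against 13.2 and 41.2 CPM in E10.5 HE (1.19 ± 0.96).

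In GFI1+ IAHC, compared within GL78 alone, 7 of 17 measured genes were higher at E11.5 and 1 was lower, beside 8.79% and 2.48% of 9797 measured genes. The median log2 ratio was 0.80, against 0.07 over all measured genes. Robo4 had 309.4 CPM (305.2 to 313.6) in E11.5 IAHC and 110 CPM (107.5 to 112.3) in E10.5 IAHC (1.49), and its relative Robo1, a Slit receptor, 25.1 CPM in E11.5 IAHC and 10.2 CPM in E10.5 IAHC (1.22). Sema6a had 126.9 CPM in E11.5 IAHC and 41.1 CPM in E10.5 IAHC (1.60), and Plxnb2 72.8 CPM in E11.5 IAHC and 29.7 CPM in E10.5 IAHC (1.27). Both thus followed the direction of the Robo genes, as did Sema3f (13.03 CPM in E11.5 IAHC, 5.44 CPM in E10.5 IAHC, 1.12, but 0.42 after thinning) and Plxna4 (14.3 CPM in E11.5 IAHC, 5.38 CPM in E10.5 IAHC, 1.26, but 0.97 without clusters 6 to 10). Unc5b was called with 75.9 CPM in E11.5 IAHC and 32.4 CPM in E10.5 IAHC (1.204), but after thinning the ratio was 0.72 and without clusters 6 to 10 it was 0.05, and cluster 7, where Unc5b was highest, held 13 E11.5 and 1 E10.5 cells of this population. Slit2 ran the other way at 4.15 CPM (3.68 to 4.67) in E11.5 IAHC and 31.6 CPM (30.3 to 32.9) in E10.5 IAHC (-2.66). Plxnd1 (656 CPM in E11.5 IAHC, 376.9 CPM in E10.5 IAHC, 0.80) and Sema6d (105.3 CPM in E11.5 IAHC, 53.5 CPM in E10.5 IAHC, 0.96) stayed under 2-fold. With GL53, GL58 and GL69 summed in as well, the calls of Plxnb2 (0.88), Robo1 (0.99) and Sema3f (0.81) were lost.

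The genes called between GFI1+ and GFI1- IAHC at E11.5 were secreted ligands. Of 24 genes measured in GL53 and GL78, 0 were higher in GFI1+ IAHC and 3 lower, beside 0.493% and 1.76% of 10345 measured genes, and the median log2 ratio was -0.72, against -0.02 over all. Plxnd1 had 561 and 656 CPM in GFI1+ IAHC, against 387.1 and 575 CPM in GFI1- IAHC (0.36 ± 0.25), and Robo4 286.1 and 309.4 CPM, against 198.7 and 345.2 CPM (0.18 ± 0.48). Sema6a had 113.8 and 126.9 CPM in GFI1+ IAHC, against 106.5 and 113.2 CPM in GFI1- IAHC (0.13 ± 0.05), Sema6d 107.1 and 105.3 CPM, against 89.5 and 113.7 CPM (0.07 ± 0.26), and Unc5b 46.8 and 75.9 CPM, against 93.9 and 92.9 CPM (-0.64 ± 0.50). These 5 lay on average within 2-fold, whereas Plxnb2 lay near the line at 55.3 and 72.8 CPM in GFI1+ IAHC, against 140.5 and 139.4 CPM in GFI1- IAHC (-1.13 ± 0.28). It missed 2-fold in GL78 and was not called, but was called lower after thinning, by the mean of single cells, with all sequenced cells, with batches summed and without GL78, and stood at -0.49 without clusters 6 to 10. Neo1 had 22.7 and 15.1 CPM in GFI1+ IAHC, against 63.2 and 10.3 CPM in GFI1- IAHC (-0.47 ± 1.37). The 3 genes called lower were the secreted ligands Sema3c, Sema3a and Slit3. Sema3c, which guides neural crest cells into the heart outflow tract in mice, had 1.499 and 0.990 CPM in GFI1+ IAHC, against 13.04 and 9.47 CPM in GFI1- IAHC (-2.44 ± 0.07). Sema3a, the prototype repellent read by neuropilin 1, had 7.49 and 5.97 CPM in GFI1+ IAHC, against 28.1 and 14.3 CPM in GFI1- IAHC (-1.45 ± 0.46), and 94.3% of the GFI1- reads in GL78 came from 1 cell. Slit3 had 17.6 and 9.67 CPM in GFI1+ IAHC, against 39.7 and 24.1 CPM in GFI1- IAHC (-1.18 ± 0.08). None of the 3 calls was held when the highest cell of each group was left out, where Sema3c stood at -1.07, Slit3 at -1.04 and Sema3a at -0.19. Without clusters 6 to 10, Sema3c reversed to 0.90 and Slit3 was at -0.82. Of the 36 cells of cluster 6, 32 were E11.5 GFI1- IAHC, and the summed mesenchyme markers stood at 10.4 to 48.4 CPM in GFI1+ IAHC, against 38.2 to 2027 CPM in GFI1- IAHC. Of the 11 cells of cluster 10, 9 were E11.5 GFI1- IAHC, and the summed macrophage markers stood at 25.1 to 107.9 CPM in GFI1+ IAHC, against 221.5 to 463.8 CPM in GFI1- IAHC. Unc5c, Sema5a, Sema5b and Robo2 were at least 2-fold lower in GFI1+ IAHC in GL53 but not in GL78. Unc5c, for example, had 2.08 and 0.270 CPM in GFI1+ IAHC of GL53 and GL78, against 41.03 and 0.958 CPM in GFI1- IAHC.

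The 11 clusters of the study were built from the expression of all genes, these among them, so their levels are a description and not a test. Of the 44 genes, 36 reached 10 CPM in a cluster. Summed over the genes, cluster 4 held 2513 CPM and cluster 2 held 494 CPM, against 1605, 2016, 1483 and 1191 CPM in clusters 0, 1, 3 and 5, which make up the bulk of endothelial-like cells. A thinned cell of cluster 4 had reads of 13 of the genes in the median and one of cluster 2 of 5, against 8 or 9 in clusters 0, 1, 3 and 5. Among clusters 0 to 5, 17 genes had a highest level of 10 CPM or more that was at least 2-fold above the median of the 6 clusters. Of these, 14 peaked in cluster 4, 2 (Sema4d and Sema4b) in cluster 2 and 1 (Sema3a, 15.3 CPM) in cluster 0. The same rule was not run over all genes, so these counts have no background beside them.

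**Figure D2:**
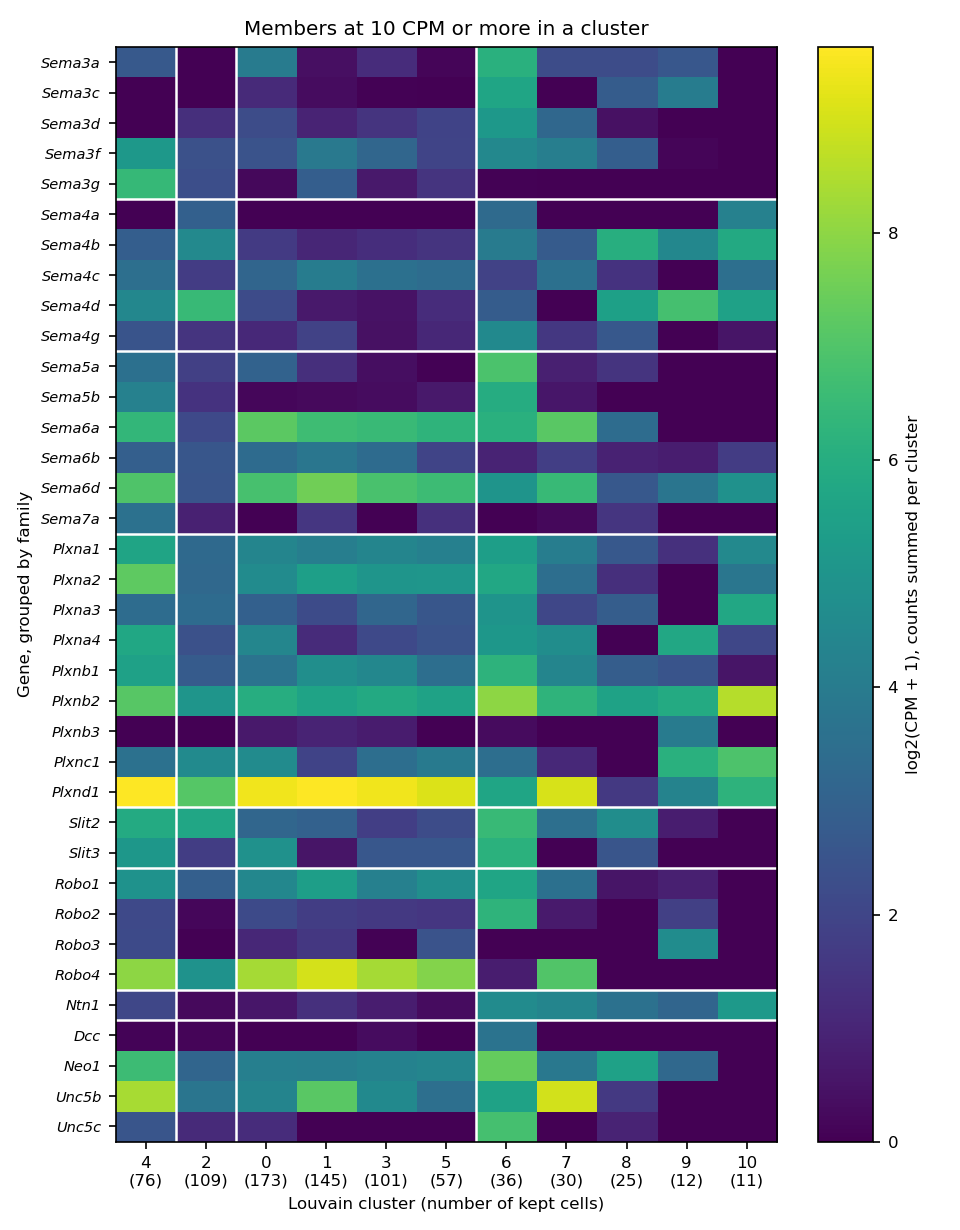
Heat map of log2(CPM + 1) for the 36 genes that reached 10 CPM in a cluster, grouped by family, across the 11 clusters of the study in the order 4, 2, 0, 1, 3, 5 and 6 to 10. Plxnd1 and Robo4 are high across clusters 4, 0, 1, 3 and 5 and low in cluster 2, Sema3g is filled in cluster 4 (87.4 CPM) and Sema4d in cluster 2 (89.9 CPM) and cluster 9 (108.9 CPM).

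Within GFI1+ HE, cluster 4 was compared with clusters 0, 1, 3 and 5 in GL53 at E11.5 and in GL78 at E10.5. Of the 22 measured genes, 12 were higher in cluster 4 and 0 lower, beside 8.99% and 4.86% of 9914 measured genes. The median log2 ratio was 1.57, against 0.02 over all measured genes. Of the ligands, Sema3g had 105.5 and 60.1 CPM in cluster 4, against 6.29 and 1.36 CPM in clusters 0, 1, 3 and 5 (4.28 ± 0.58). Sema4d had 36.1 and 15.3 CPM in cluster 4, against 0.894 and 0.905 CPM in the other clusters (3.69 ± 0.84). Slit2 had 43.7 and 77.02 CPM in cluster 4, against 12.5 and 0.958 CPM (3.52 ± 2.54), and Slit3 30.1 and 44.1 CPM in cluster 4, against 4.09 and 3.06 CPM (3.04 ± 0.61). Thus secreted cues of both the semaphorin and the Slit families were found in the same cluster. Sema3f had 63.8 and 15.8 CPM in cluster 4, against 13.1 and 5.72 CPM in the other clusters (1.76 ± 0.62), and Sema7a, a semaphorin anchored in the membrane by lipid, 5.42 and 19.1 CPM, against 2.17 and 0.0266 CPM (2.66 ± 2.31).

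Of the receptors called higher in cluster 4, Unc5b had 216.95 and 389 CPM in cluster 4, against 106.6 and 63.8 CPM in clusters 0, 1, 3 and 5 (1.80 ± 1.11). Plxna2 (ENSMUSG00000026640, chr1:194618218-194816869, plus strand) had 247.1 and 76.6 CPM in cluster 4, against 54.8 and 31.5 CPM in the other clusters (1.71 ± 0.63). Neo1 had 89.1 and 96.99 CPM in cluster 4, against 27.02 and 18.8 CPM (1.996 ± 0.44). All 3 receptors were higher in cluster 4 at both stages, though by unequal amounts. Plxnb2 had 147.4 and 133.6 CPM in cluster 4, against 45.1 and 57.6 CPM (1.44 ± 0.34), its relative Plxnb1, a receptor of Sema4d, 60.3 and 28.1 CPM, against 23.3 and 11.98 CPM (1.25 ± 0.12), and Plxna4 72.3 and 18.1 CPM, against 2.699 and 6.79 CPM (2.80 ± 2.13). The abundant endothelial receptors did not share this pattern. Plxnd1 had 942 and 706 CPM in cluster 4, against 685 and 618 CPM (0.32 ± 0.19), and Robo4 301.3 and 185.8 CPM, against 538 and 248.1 CPM (-0.62 ± 0.30). Sema6a (99.8 and 65.9 CPM in cluster 4, against 116.6 and 66.7 CPM, -0.12 ± 0.15) and Sema6d (148.1 and 125.9 CPM, against 184.3 and 98.1 CPM, 0.02 ± 0.47) were level. Cluster 4 led the arterial markers, at a sum of 5646 CPM, against 278.5 to 872 CPM in clusters 0, 1, 3 and 5. With the highest cell of each side left out, the calls of Unc5b and Sema7a were lost, the first by a ratio just under 2-fold in 1 stratum and the second by the 10 CPM minimum.

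Within GFI1+ IAHC, cluster 2 was compared with clusters 0, 1, 3 and 5 in GL53 at E11.5, GL78 at E10.5 and GL78 at E11.5. Of 19 measured genes, 2 were higher in cluster 2 and 9 lower, beside 6.7% and 7.51% of 10285 measured genes, and the median log2 ratio was -2.04, against 0.11 over all measured genes. Sema4d (ENSMUSG00000021451, chr13:51685529-51793747, minus strand) had 146.6, 44.1 and 92.8 CPM in cluster 2, against 5.06, 1.28 and 2.47 CPM in the other clusters (4.56 ± 0.23). Sema4b, a second class 4 semaphorin, had 33.1, 13.7 and 11.503 CPM in cluster 2, against 2.53, 0.598 and 1.5004 CPM (2.93 ± 0.53). In all 3 strata both genes were above every value of the other side. The third class 4 gene measured, Sema4c, was lower in cluster 2, as given below. The 2 class 6 semaphorins measured were also lower: Sema6a had 7.38, 1.29 and 0 CPM in cluster 2, against 146.6, 67.5 and 146.2 CPM (-5.41 ± 1.60), and Sema6d 6.35, 2.92 and 0 CPM, against 141.9, 102.99 and 136.97 CPM (-5.37 ± 1.52). The stratum at 0 counts held 15 cells of cluster 2. Read against a floor of 3 counts per stratum, Sema6a was 462-fold and Sema6d 433-fold lower there. That floor covers counting of reads only, so with so few cells neither fold is a lower bound.

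The endothelial receptors were low in cluster 2 as well. Robo4 had 26.2, 27.1 and 52.8 CPM in cluster 2, against 368.2, 187.5 and 408 CPM in clusters 0, 1, 3 and 5 (-3.15 ± 0.54). Plxnd1 had 92.2, 158.9 and 44.3 CPM in cluster 2, against 706, 587 and 841 CPM (-3.01 ± 1.17). Unc5b had 0.205, 11.7 and 0 CPM in cluster 2, against 40.98, 29.6 and 33.2 CPM (-3.83 ± 2.22). Its 0, in the same 15 cells, is a difference of 104.8-fold at the same floor, which again is not a lower bound. None of these receptors overlapped between the 2 sides, and the share of all genes without overlap is not given, here or above. Plxna2 (13.9, 3.35 and 0 CPM in cluster 2, against 33.7, 18.3 and 30.6 CPM, -2.78 ± 1.959), Sema4c (0, 3.52 and 0.528 CPM in cluster 2, against 8.66, 15.8 and 5.84 CPM, -2.44 ± 0.73), Slit3 (6.08, 1.46 and 0 CPM in cluster 2, against 22.6, 7.58 and 12.1 CPM, -2.42 ± 1.12) and Robo1 (4.51, 3.32 and 14.04 CPM in cluster 2, against 24.4, 17.2 and 30.7 CPM, -1.79 ± 0.62) completed the 9. Sema4c was no longer called with the highest cell left out, with batches summed or without GL78 at E10.5, Robo1 after thinning, and Slit3 without GL53. Plxnc1 (0.22 ± 0.78) and Plxna3 (0.86 ± 0.54) were the receptors at or above the other side on average, and Plxnb2 was not called, at 8.47, 16.4 and 39.997 CPM in cluster 2, against 63.1, 36.98 and 70.4 CPM (-1.56 ± 1.05). Slit2 followed neither direction, with 38.1, 71.2 and 0.950 CPM in cluster 2, against 8.31, 1.195 and 3.41 CPM (1.98 ± 3.11). Cluster 2 held endothelial markers at a sum of 867 CPM and hematopoietic ones at 1333 CPM, against 4452 to 6138 and 91.88 to 145.4 CPM in clusters 0, 1, 3 and 5, and the part of this difference in the ratios was not tested.

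**Figure D3:**
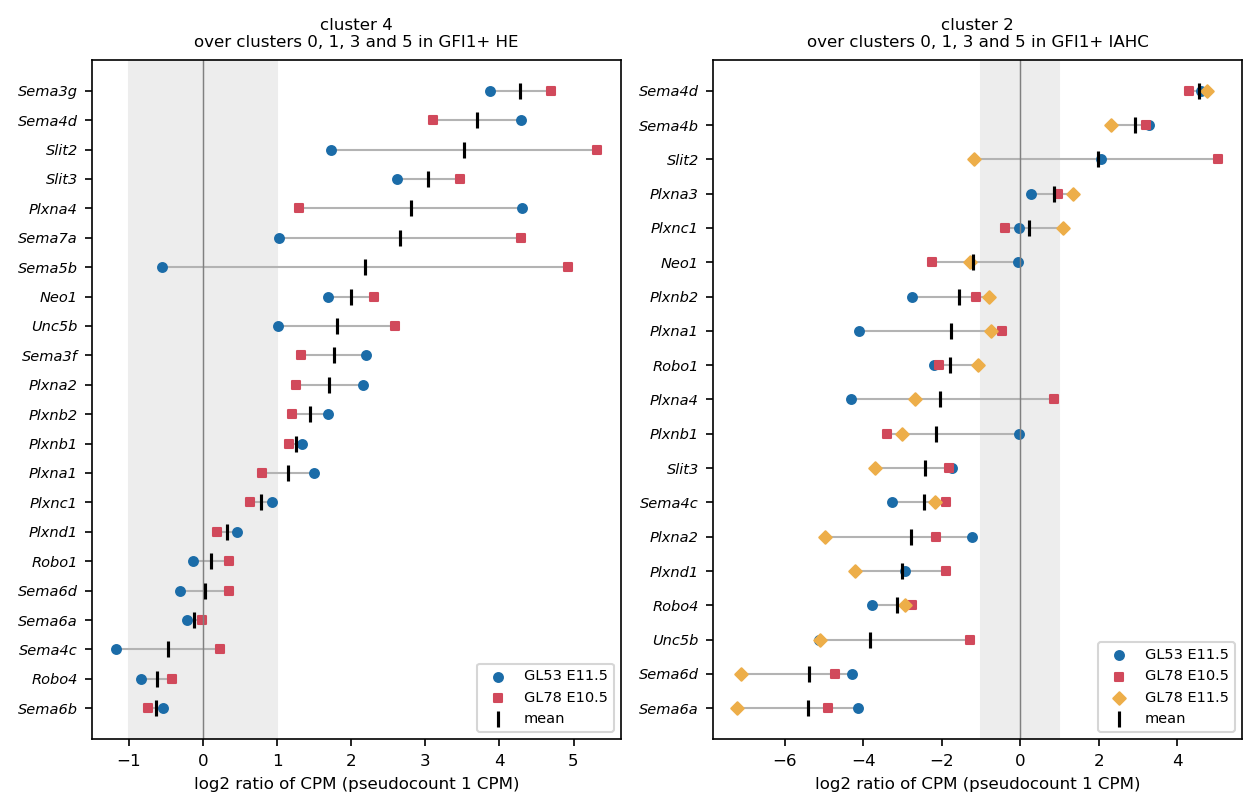
Log2 ratios of all measured genes of the set in each batch and stage, called or not, for cluster 4 over clusters 0, 1, 3 and 5 in GFI1+ HE and for cluster 2 over the same clusters in GFI1+ IAHC. Points are batch and stage strata, ticks are their means and the grey band covers differences under 2-fold: Sema3g (mean 4.28) is farthest right for cluster 4, and Sema4d (4.56) and Sema6a (-5.41) mark the ends for cluster 2.

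The differences were also seen as shares of cells with a read at equal depth. Sema3g was read in 78.9% of cluster 4 cells (interval 68.1 to 87.5%) and 9.17% of cluster 2 cells, against 1.16 to 17.9% in clusters 0, 1, 3 and 5. Unc5b was read in 93.4% of cluster 4 cells and 11.01% of cluster 2 cells, against 71.7% in cluster 1 and 19.3 to 32.7% in clusters 0, 3 and 5. Cluster 1 thus stood between cluster 4 and the rest for this receptor. Sema4d was read in 66.1% of cluster 2 cells (56.4 to 74.9%) and 22.4% of cluster 4 cells, against 2.07 to 8.67% elsewhere among clusters 0 to 5. Sema6d was read in 76.3% of cluster 4 cells and 9.17% of cluster 2 cells, against 84.2 to 96.6% in clusters 0, 1, 3 and 5. Plxnd1 kept a wide range, with 100% of cluster 4 cells and 75.2% of cluster 2 cells, against 99.4 to 100% in clusters 0, 1, 3 and 5. Its summed level in cluster 2 was 135.9 CPM.

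**Figure D4:**
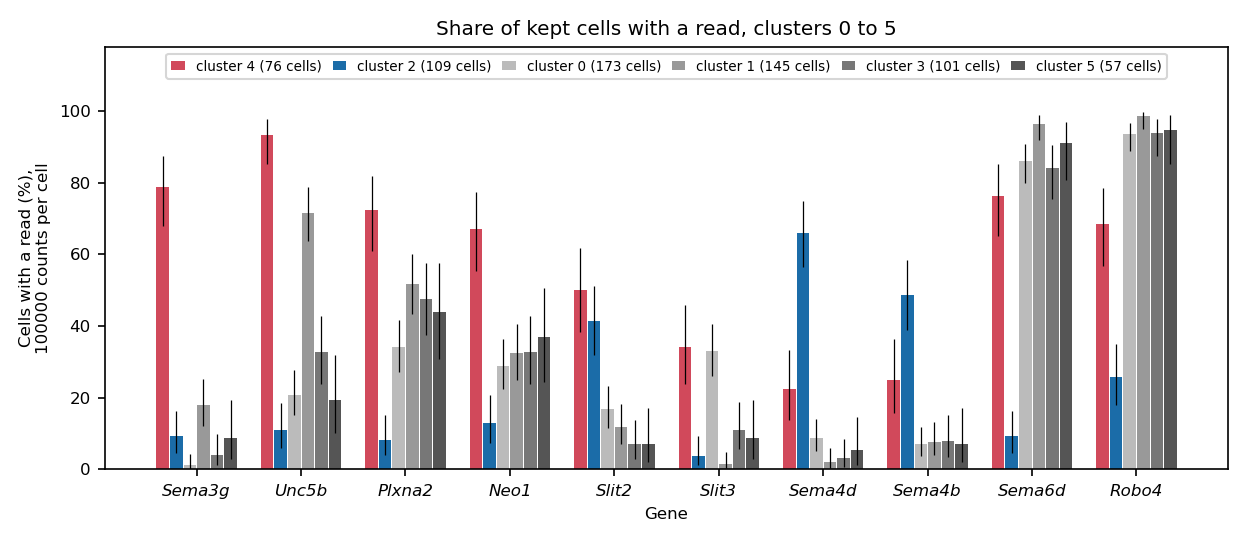
Share of cells with at least 1 read of each of 10 genes after thinning to 100000 counts per cell, for clusters 4, 2, 0, 1, 3 and 5, with Clopper-Pearson 95% intervals over cells. Sema3g (78.9%), Unc5b (93.4%) and Slit2 (50%) are at their highest in cluster 4, Sema4d (66.1%) and Sema4b (48.6%) in cluster 2, and Sema6d and Robo4 drop in cluster 2 to 9.17% and 25.7%.

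Pairs of these genes, not all of them a ligand and its receptor, were read in the same cells to differing degrees. In cluster 4, 57 of 76 thinned cells had reads of both Sema3g and Unc5b, 3 of Sema3g alone, 14 of Unc5b alone and 2 of neither. Each of these genes was read in most cells of cluster 4, so a joint count this high needs no link between them. Sema3g and Plxna2 were read together in 42 of these cells, and Neo1 and Unc5b, both netrin receptors, in 49. Across all kept cells, 0 had reads of Sema3g without Plxnd1, but Plxnd1 was read in 89.3% of these thinned cells. In cluster 2, where Sema4d was higher and Sema6d lower, 9 cells had reads of both Sema4d and Sema6d, 63 of Sema4d alone, 1 of Sema6d alone and 36 of neither. Sema4d was read with its receptor Plxnb2 in 21 cells of cluster 2 and without it in 51, and with Plxnb1 in 5. Slit2 was read in 45 cells of cluster 2, of which 19 also had Robo4 and 9 Robo1. A gene without a read at this depth may still be transcribed in a cell, so these counts are lower limits for joint expression.

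Clusters 6 and 8 to 10 held markers of other cell types, and cluster 7 held endothelial (summed 2360 CPM) and venous (summed 1768 CPM) markers unevenly. Nrp2, also a listed partner, gave 1372 CPM of the venous sum. Aplnr had 37.1 CPM there, against 962 to 1307 CPM in clusters 0, 1, 3 and 5, and Esam 3.09 CPM, against 693 to 1144 CPM. Emcn, Pecam1 and Tek also lay below those clusters, whereas Kdr, Cdh5, Nr2f2 and Ephb4 lay within their range. Of the 36 genes that reached 10 CPM in a cluster, 25 were highest in one of clusters 6 to 10. None of the counts of genes in this paragraph was also made over all genes. Cluster 6, led by mesenchyme markers (summed 5107 CPM, endothelial markers 64.3 CPM), was the peak of 14 of the 25, among them Neo1 (163.03 CPM), Sema5a (117.97 CPM), the netrin receptor Unc5c (108.9 CPM), Slit2 (89.8 CPM) and Slit3 (69.95 CPM). Its cells read more of these genes than those of any other cluster, with a median of 15 per thinned cell. Cluster 10, led by macrophage markers (5646 CPM), was the peak of Plxnb2 (377.4 CPM), Plxnc1 (121.4 CPM), Plxna3 (53.8 CPM), Ntn1 (34.9 CPM) and Sema4a (17.8 CPM), where 1 cell gave 99.6% of the Plxna3 reads, 100% of the Ntn1 reads and 97.5% of the Sema4a reads. Cluster 9, led by megakaryocyte markers, was the peak of Sema4d (108.9 CPM), Plxna4 (54.4 CPM), Robo3 (24.5 CPM) and Plxnb3 (15.3 CPM), from 12 cells. There 1 cell gave 98.7% of the Plxnb3 reads, 1 gave 61.5% of the Robo3 reads and 1 gave 51.9% of the Plxna4 reads. The counting interval of Plxna4 in cluster 9 (49.9 to 59.2 CPM) covered its level in cluster 4 (52.9 CPM). Cluster 8, with germ cell markers at 1714 CPM, had Sema4b at 65.5 CPM, and cluster 7 Unc5b at 509 CPM, above cluster 4 at 330 CPM (325.5 to 335.1). Of the 17 genes that stood out among clusters 0 to 5, 12 were higher still in one of these clusters.

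The co-receptors and intracellular partners were counted from a list of 67 genes. In E11.5 GFI1+ HE over GFI1+ IAHC, 2 of 57 measured partners (3.51%, against 0.917% of all measured genes) were higher and 0 lower. They were neuropilin 1, Nrp1, at 922, 774 and 686 CPM in HE, against 353.8, 372.3 and 270.7 CPM in IAHC (1.26 ± 0.18), and Met, a tyrosine kinase that plexin B1 can engage (1.98 ± 0.89). At E10.5, 6 of 56 (10.7%, against 5.47% of all) were higher, with Nrp1 at 735 CPM in HE and 241.04 CPM in IAHC (1.60), and 2 (3.57%, against 1.99%) lower, Tyrobp and Pak1. Cluster 4 separated the neuropilins: Nrp1 had 1944 and 1777 CPM in cluster 4, against 596 and 388 CPM in clusters 0, 1, 3 and 5 (1.95 ± 0.34), and Nrp2 19.96 and 13.1 CPM, against 260 and 169.4 CPM (-3.62 ± 0.03). Nrp2, the co-receptor of Sema3g and Sema3f, was thus low where those ligands were high. In all, 6 of 53 partners were higher in cluster 4 (11.3%, against 8.99% of all) and 3 lower (5.66%, against 4.86%), shares near those of all genes. The higher ones included Met (4.57 ± 1.37), Mical3 (2.01 ± 0.55) and Dapk1, a kinase bound by Unc5b (1.70 ± 0.03), and the lower ones also Flrt2, a membrane ligand of Unc5 receptors (-2.31 ± 1.57), and the semaphorin mediator Crmp1 (-2.00 ± 0.39).

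In cluster 2, 4 of 56 partners were higher (7.14%, against 6.7% of all) and 16 lower (28.6%, against 7.51%), with a median log2 ratio of -0.70. The 4 were Tyrobp, an adaptor of myeloid receptors that joins plexin A1 in mouse immune cells (7.83 ± 1.30), the Slit-Robo GTPase-activating protein Srgap3 (3.95 ± 1.27), Sh3bp1 (2.96 ± 1.07) and the kinase Pak1 (2.25 ± 0.32). Among the 16, Crmp1 (-6.94 ± 2.04), Nrp2 (-5.49 ± 1.61), Erbb2 (-5.34 ± 0.39) and Mcam, a netrin-binding adhesion molecule (-4.91 ± 0.61), were named by the rule. With stage, 1 of 57 partners was higher in E11.5 HE (1.75%, against 2.48% of all), the plexin-binding GTPase Rnd1 (1.75 ± 0.83). In E11.5 GFI1+ IAHC 6 of 56 were higher (10.7%, against 8.79% of all), among them Nrp2 at 384.2 CPM, against 136.7 CPM in E10.5 GFI1+ IAHC (1.48). There 1 was lower (1.79%, against 2.48% of all), Srgap3 (-2.33). None of 55 measured partners was called between GFI1+ and GFI1- IAHC, beside 0.493% of all measured genes higher and 1.76% lower.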

How the data were processed

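Reads were aligned by the authors to mm10 with STAR 2.7.3 and counted per gene with HTSeq 0.9.1, per the submitters' processing notes, and the raw count table was deposited with 1 column per cell. The strand setting, the annotation release and any removal of duplicates are not given in the sources used here. Besides counts, the deposited value used was the number of the authors' Louvain cluster, made with Scanpy 1.4.4 after their filter. The table held 46078 genes, of which 45229 were matched to a symbol of GENCODE M21 (0.0581% of counts had none), and 92 spike-in rows with 0 counts were left out. The genes and gene lists were chosen with earlier results of these data known.

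Counts were summed over kept cells per group and batch (at least 10 cells on both sides), divided by the total to give CPM, and compared within batches as log2 ratios with a pseudocount of 1 CPM. No test was made. Genes called, or at 50 CPM or more, were named with values per batch, at most 4 partners per direction were named, and in clusters genes at 10 CPM or more that were at least 2-fold above the median of clusters 0 to 5 or highest in clusters 6 to 10. Exons of 2 of the genes, Plxna1 and Sema4c, overlapped a gene on the opposite strand by over 5% of their length (10.7% and 7.27%), so their counts are uncertain. Thinning used seed 7. Python 3.11.15, numpy 2.4.6, pandas 2.3.3, scipy 1.17.1 and matplotlib 3.10.9 were used. Alternatives changed the pseudocount, minimum level, scaling, cells, batches and single highest cells.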

Additional observations from a re-analysis of the deposited data

Results flagged for a closer look

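Cells outside the comparisons also held these transcripts. The 3 kept E10.5 GFI1- IAHC cells, too few to be a group, summed to 974.7 CPM over the 44 genes (exact Poisson interval 935 to 1016 CPM), with reads of 17 of them and Plxnd1 highest at 591 CPM. The 85 cells left out by the quality filter summed to 1325 CPM (1310 to 1340 CPM), with reads of 36 of the genes and Plxnd1 highest at 416.8 CPM. Both values stand out only because they lie outside the main measurement, above the level that 0 counts would allow, and no control sample was at hand.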

How the results depend on the processing

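Of the recounts of called genes under the alternatives, all but 37 stayed within 1.5 times the count reported. With a minimum of 50 CPM the counts were 1 higher and 0 lower for HE over IAHC at E11.5, 2 higher at E10.5, 0 lower for GFI1+ over GFI1- IAHC, 0 lower for E11.5 over E10.5 HE, 4 higher and 0 lower for E11.5 over E10.5 IAHC, 6 higher for cluster 4, and 1 higher and 4 lower for cluster 2. With a minimum of 1 CPM they were 16 higher and 1 lower for HE over IAHC at E10.5, 3 lower between the HE stages, 13 higher and 3 lower between the IAHC stages, and 1 lower for cluster 4. Thinning gave 2 lower for HE over IAHC at E11.5 and 2 lower between the HE stages. Batches summed gave 4 higher for HE over IAHC at E11.5, 10 lower for GFI1+ over GFI1- IAHC, and 3 higher and 2 lower between the HE stages. A pseudocount of 0.1 CPM gave 5 lower for GFI1+ over GFI1- IAHC. Without clusters 6 to 10 that count was 1, Sema3c there reversed to 0.90, and 0 were higher between the HE stages. With the cell highest for each gene left out on both sides it was 0, and 3 were lower between the HE stages. Leaving out each batch in turn gave 2 to 3 higher and 1 to 2 lower for HE over IAHC at E11.5, 1 to 1 higher and 5 to 13 lower for GFI1+ over GFI1- IAHC, 2 to 7 higher and 2 to 3 lower between the HE stages, and 0 to 1 lower for cluster 4. The cause of these shifts was not tested, beyond the minimum itself, which sets how many genes are measured. Scaling by the median of ratios, which moved single comparisons by -0.06 to 0.14 on the log2 scale, most for cluster 2, changed no count. All sequenced cells, and leaving out clusters 6 to 10, were not run for the cluster comparisons. No paired analysis was possible because each group is 1 sample with no test to block, and replicate numbers only name cells. The ratios were already taken within batches. Depth limits the low genes, since 3 counts were worth up to 0.317 CPM, in the smallest of the sums compared (cluster 2 in GL78 at E11.5).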
